A study of Mus musculus with 4 samples.

Results

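The bone morphogenetic protein (BMP) pathway was followed at 10 genes: the ligand genes *Bmp2* and *Bmp4*, the receptor genes *Bmpr1a* and *Bmpr2*, the decoy receptor gene *Bambi*, the inhibitory Smad genes *Smad6* and *Smad7*, and the target genes *Id1*, *Id2* and *Id3*. These genes were chosen by name among 22208 protein-coding genes of the mouse annotation, and a Gata4 peak was assigned to one of them when the authors' list named the gene, which they did within 5 kb, or when the peak lay within 50 kb of the gene body on mm9. This gave 48 of the 20410 peaks in the WT Flk1(+) list and 67 of the 22733 peaks in the DKO Flk1(+) list, which is 0.235% and 0.295% of the lists. All 10 genes had at least 1 peak within 50 kb in each list, against 67.2% of all genes for WT and 70.5% for DKO.

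Both mesoderm libraries were made from ES cells that express Gata4GR, a CAG-driven fusion of Gata4 with the hormone-binding part of the glucocorticoid receptor that dexamethasone (Dex) activates. WT cells were of a J1-derived clone, J1G4.2 in the label. DKO cells were of clone 16G4.3, which lacks Dnmt3a and Dnmt3b, the enzymes that lay down new CpG methylation. Cells were grown with OP9 stromal cells until day 4.5, given 100 nM Dex for 3 hr and sorted magnetically for Flk1, a VEGF receptor that mesoderm cells display. The WT ES and DKO ES controls expressed the same fusion protein but were undifferentiated and received no Dex. Setting the lists side by side asks where Gata4 binds around the BMP genes in Dex-treated mesoderm with and without these enzymes. The paper reports that Flk1(+) cells already express endogenous Gata4 without Dex. No mesoderm library without Dex is among the 4, so binding of endogenous Gata4 cannot be told apart from that of the fusion. Each genotype was 1 clone and each of the 4 conditions 1 library, so no difference between WT and DKO could be set against a spread between replicates, no test was made, and every comparison describes the libraries. The peak lists hold no expression values, so the mesoderm identity of the cells was not checked here. They also hold no read totals, and whether the heights were scaled for depth is not stated in the sources used here. A height is that of the authors' read density profile at the peak, and enrichment is its ratio to the height of the ES control of the same genotype at that position, with ES heights below 1 taken as 1. Every listed peak has a height of at least 5 and an enrichment of at least 3.

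BMPs are secreted proteins that bring together type I and type II receptor kinases on the cell surface. The receptors phosphorylate Smad1, Smad5 and Smad9, which enter the nucleus with Smad4 and act on genes such as *Id1*, *Id2* and *Id3*, whose proteins hold back basic helix-loop-helix factors. Smad6, Smad7 and Bambi damp the signal, and BMP signalling is needed for mesoderm to form and for the heart and blood lineages that arise from it. Gata factors bind WGATAA (W stands for A or T) and the wider WGATAR (R stands for A or G), which takes in every WGATAA.

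Sequences at some of the sites, picked mostly by their motif, are shown first. Each is 101 bases of the plus strand of mm9 centred on the deposited position. Capitals mark WGATAA on either strand, so that it also appears as TTATCT or TTATCA. For *Bmp2*, *Bmp4*, *Bmpr1a* and *Smad6* they are the highest peak with a match in the central 100 bp. *Id1*, *Bambi* and *Smad7* also had such peaks, which are not shown. A second *Bmp2* site was added after its values were seen because its matches overlap. In order, the regions are chr2:133396628-133396728, chr2:133406723-133406823, chr14:47055915-47056015, chr14:35321485-35321585 and chr9:63893083-63893183.
Bmp2, 18.8 kb past the TSS: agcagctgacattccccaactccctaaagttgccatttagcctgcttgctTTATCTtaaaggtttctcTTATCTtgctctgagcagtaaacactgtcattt
Bmp2, 28.9 kb past the TSS: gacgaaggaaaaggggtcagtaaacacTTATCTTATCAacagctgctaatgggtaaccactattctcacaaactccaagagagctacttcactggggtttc
Bmp4, 45.6 kb upstream of the TSS: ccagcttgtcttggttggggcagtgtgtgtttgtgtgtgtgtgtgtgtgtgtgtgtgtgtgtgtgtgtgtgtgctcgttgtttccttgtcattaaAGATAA
Bmpr1a, 5.0 kb upstream of the TSS: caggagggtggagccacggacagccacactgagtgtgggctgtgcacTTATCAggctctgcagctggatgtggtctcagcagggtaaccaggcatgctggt
Smad6, 23.3 kb upstream of the TSS: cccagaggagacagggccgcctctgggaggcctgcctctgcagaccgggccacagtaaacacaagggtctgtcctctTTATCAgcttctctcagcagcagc

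The *Id2* peak of both lists is shown for contrast, since its deposited window, which reaches 250 bases to either side, holds 45 CpGs and no WGATAA. It was also added after its values were seen, it covers chr12:25783761-25783861, and the capitals here mark its CpGs.
Id2, 2.9 kb upstream of the TSS: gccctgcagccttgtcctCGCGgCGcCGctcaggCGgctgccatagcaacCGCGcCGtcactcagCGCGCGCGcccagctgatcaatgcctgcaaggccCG

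The peaks were spread unevenly over the genes. *Smad6* had by far the most, with 17 WT and 22 DKO peaks, and only 0.104% of all genes had at least as many WT peaks and 0.135% at least as many DKO peaks. *Bmp2* had 9 WT and 7 DKO peaks, and *Id3* had 5 WT and 10 DKO peaks. The other genes had between 1 and 3 WT peaks and between 1 and 8 DKO peaks, where the medians over all genes were 1 and 2. A count of this kind grows with the length of the gene, and *Smad6* spans 68914 bp. Per 100 kb searched, *Smad6* had 10.1 WT peaks and *Bmp2* 8.13, and the other genes had between 0.970 at *Bmpr2* and 4.89 at *Id3*. In the DKO list the order differed below *Smad6*, which had 13.0 peaks per 100 kb. *Id3* had 9.78 and *Id1* 7.91, ahead of *Bmp2* with 6.32 and *Smad7* with 6.23.

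Within 5 kb of the gene body, 7 of the 10 genes had a WT peak, against 39.4% of all genes, and 9 had a DKO peak, against 49.1%. The exceptions were *Bmpr2*, *Smad7* and *Id1* in the WT list and *Bmpr1a* in the DKO list. Within 1 kb of the TSS, 5 genes had a WT peak, against 21.8% of all genes, and 7 had a DKO peak, against 34.6%. *Bmp2*, *Smad6*, *Id3* and *Bambi* had such a promoter peak in both lists, *Bmpr1a* in the WT list alone, and *Bmpr2*, *Smad7* and *Id2* in the DKO list alone. This split by list was not made over all genes and has no background.

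Peaks whose deposited windows overlapped, which means positions within 500 bp of each other, were taken as 1 site, and a chain of overlapping windows counted as 1 site. The 10 genes had 68 sites, of which 23 were in both lists, 18 in the WT list alone and 27 in the DKO list alone. The same split over all sites of the lists was not made, so these counts have no background. Counted by peaks, 29 of the 48 WT peaks had a DKO counterpart, a DKO peak within 500 bp, 60.4% (95% Wilson interval 46.3% to 73.0%), against 45.6% of all WT peaks. Of the 67 DKO peaks, 36 had a WT counterpart, 53.7% (95% Wilson interval 41.9% to 65.1%), against 45.1% of all DKO peaks. These intervals cover counting error only and treat peaks as independent, although neighbouring peaks of 1 site share sequence. Without *Smad6*, left out after seeing the data, the shares were 58.1% of 31 WT peaks and 46.7% of 45 DKO peaks. The DKO share was then near that of all DKO peaks. A site in 1 list alone has no deposited height for the other library, so its absence there says only that no peak passed the authors' thresholds.

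**Figure D1:**
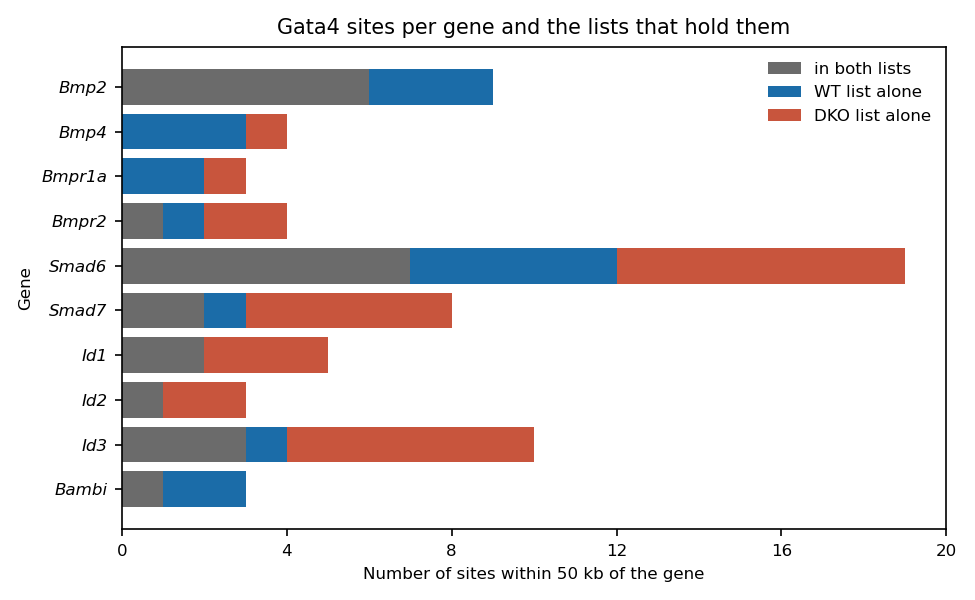
Number of Gata4 sites within 50 kb of each gene (horizontal axis) for the 10 genes (vertical axis), split into sites in both lists (grey), in the WT list alone (blue) and in the DKO list alone (red). *Smad6* has 19 sites, *Bmp4* and *Bmpr1a* have none in both lists, and *Id3* has 6 and *Smad6* 7 in the DKO list alone. The same split over all sites of the lists was not made.

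**Figure D2:**
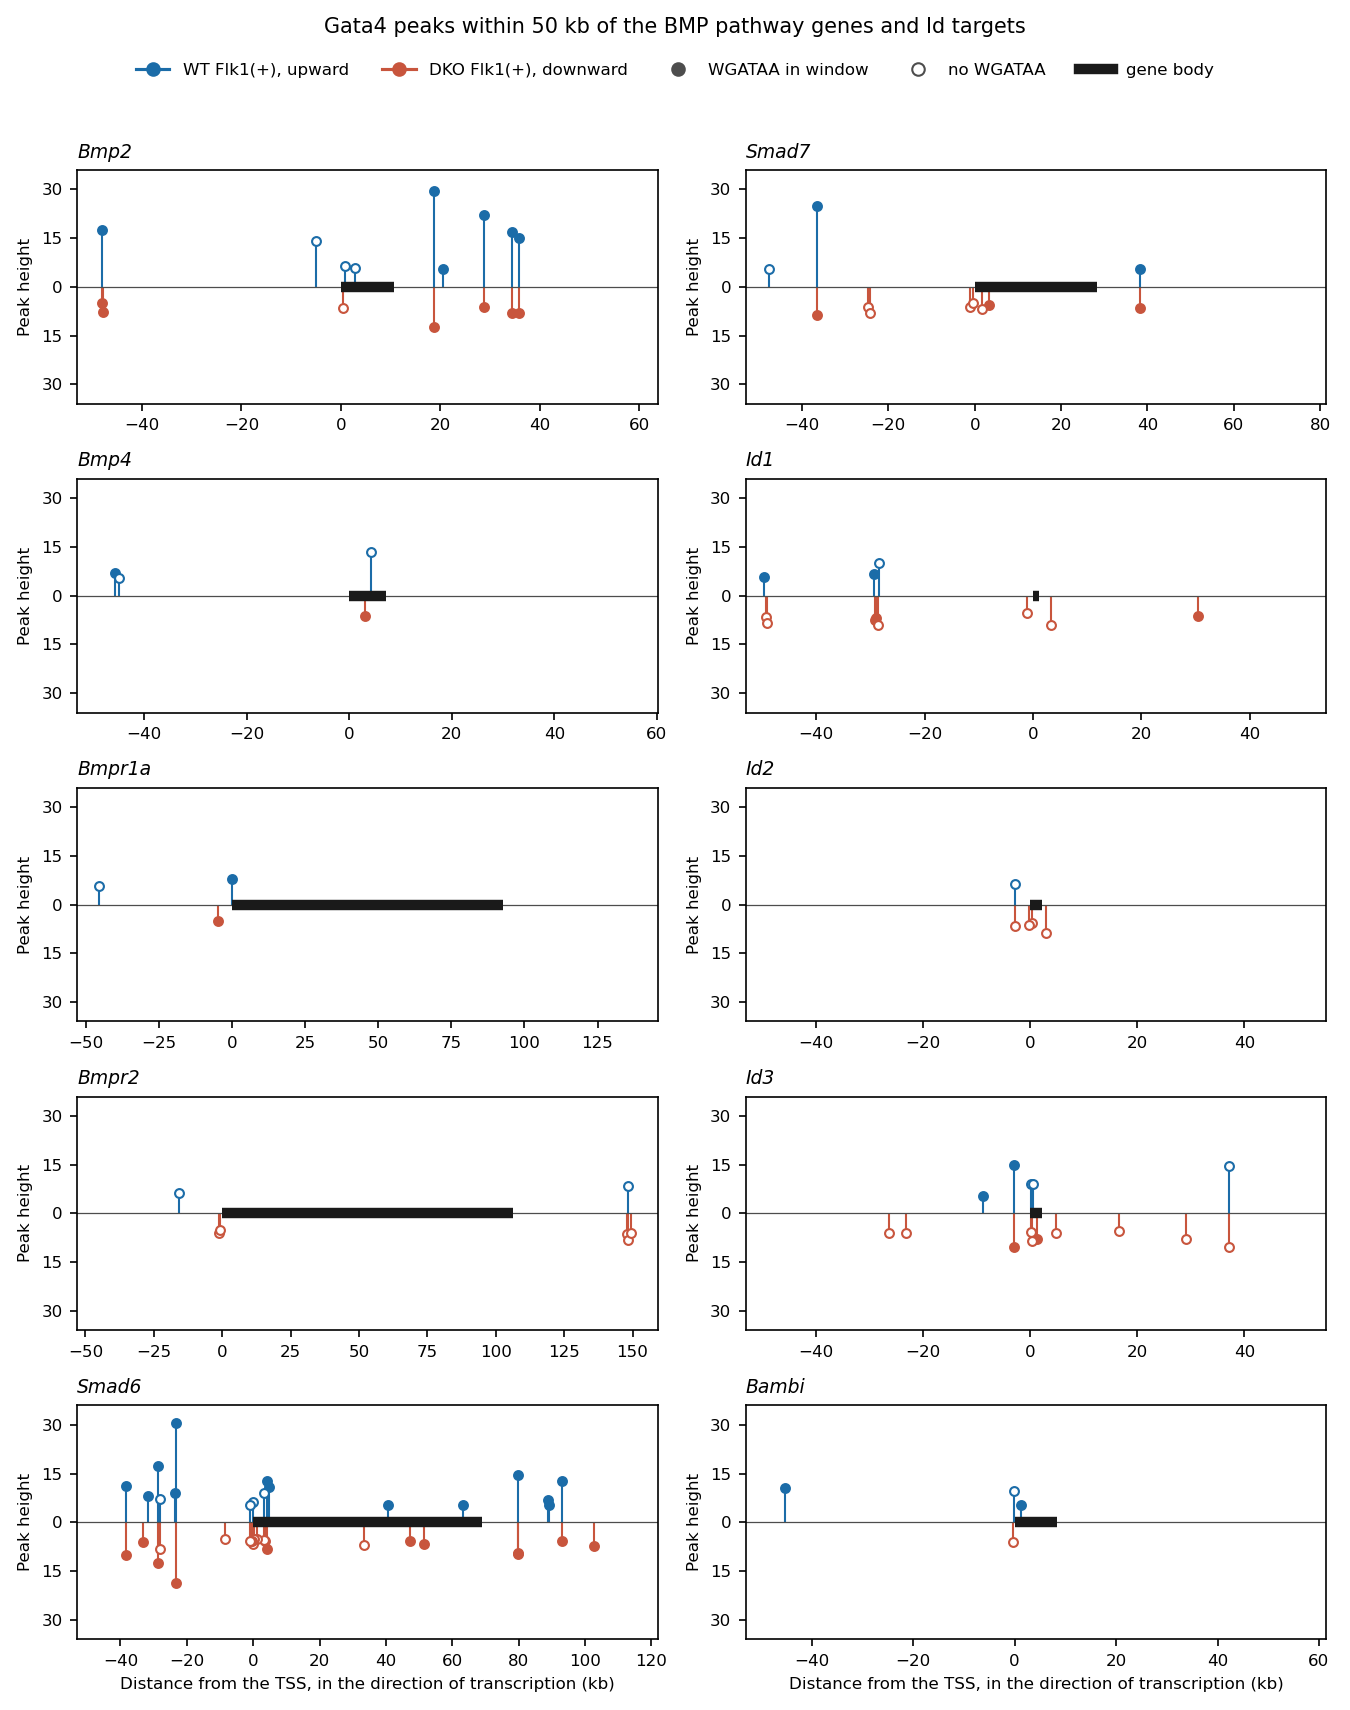
Height of every peak (vertical axis, WT upward in blue, DKO downward in red) by distance from the TSS in kb (horizontal axis, positive in the direction of transcription) for the 10 genes, with a black bar for the gene body and filled circles for peaks with WGATAA. The tall filled peaks downstream of *Bmp2* and upstream of *Smad6* and *Smad7* are lower in DKO than in WT, and the low peaks near the TSSs are mostly open circles. Depth scaling of the heights is not known. Over all 8489 pairs of peaks found in both lists, the median ratio of DKO to WT height was 0.806.

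*Bmp2*, on the plus strand of chromosome 2 from 133377895 to 133388621, had 5 of its 9 WT peaks among the highest-ranked 10% of the WT list, and all of its 7 DKO peaks had a WT counterpart. No other protein-coding gene lay nearer to any of them. The highest, 18.8 kb past the TSS and thus downstream of the gene, had a height of 29.5 in WT over 1.57 in WT ES and ranked 78 in the WT list. Its DKO peak, 13 bp away, had a height of 12.5 over 1.41 in DKO ES and ranked 661. This window held 3 matches to WGATAA, with 2 of them 18 bp apart at its centre, as shown above, and 5 CpGs. Further downstream, the site at 28.9 kb had a height of 22.3 in WT and 6.11 in DKO, with ES heights of 2.64 and 0.785. Its 2 matches start 5 bp apart and overlap. The site at 34.5 kb had heights of 16.8 in WT and 7.92 in DKO, and the site at 35.8 kb 15.0 and 8.12.

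Upstream of *Bmp2*, a site 48.0 kb before the TSS had a height of 17.7 in WT and 7.75 in DKO, with 2 matches in its window. A second DKO peak at this upstream site had a height of 5.09. At these 5 distal sites the DKO height of the paired peaks was between 0.274 and 0.540 times the WT height, and each WT window held 2 to 5 CpGs. The promoter site differed little in height. A site in both lists has a height of at least 5 in each. A low WT height thus leaves little room for a lower DKO height. In the 5′ UTR, 881 bp past the TSS, the WT peak had a height of 6.50, and the DKO peak, 433 bp nearer to the TSS, had 6.47. That WT window held 42 CpGs and no match. A WT peak 5.0 kb upstream, with a height of 14.2, an ES height of 0.824 and a rank of 1060, had no DKO counterpart and no WGATAA, but 2 matches to WGATAR. The other WT peaks without a counterpart, in an intron at 2.8 kb and downstream at 20.5 kb, had heights of 5.73 and 5.43.

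*Bmp4*, on the minus strand of chromosome 14 from 47003195 to 47010344, encodes the BMP ligand most tied to the making of mesoderm, and it had no site in both lists. An intronic WT peak lay 4.3 kb past the TSS, with a height of 13.5 over 1.57 in WT ES and a rank of 1216, with 15 CpGs, no WGATAA and 2 matches to WGATAR. The single DKO peak was also intronic, 3.1 kb past the TSS, with a height of 6.22 over 2.07 in DKO ES, 44 CpGs and 1 match. Its enrichment of 3.00 stood close to the authors' threshold. The other WT peaks lay 44.8 kb and 45.6 kb upstream, with heights of 5.58 and 6.87. The second of them holds the AGATAA at the end of the sequence shown above, after a long run of alternating g and t.

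The receptor genes, counted with *Bambi*, had 7 peaks in each list. Their median height was 7.80 in WT and 6.13 in DKO, against 7.74 and 6.91 over all peaks. *Bmpr1a*, on the minus strand of chromosome 14 from 35223920 to 35316527, encodes the main type I receptor of Bmp2 and Bmp4. Its WT peak in the 5′ UTR, 68 bp past the TSS, had a height of 7.80, 40 CpGs and 1 match to WGATAA. A WT peak 45.6 kb upstream, with a height of 5.86, lay in an intron of *Ldb3*. In the DKO list its only peak lay 5.0 kb upstream with a height of 5.18 over 0.895, nearest to *9230112D13Rik*, with 2 matches 90 bp apart. None of these had a counterpart.

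*Bmpr2*, on the plus strand of chromosome 1 from 59821481 to 59927703, encodes the type II receptor, and no peak within its reach held WGATAA in either list. Upstream of the TSS, DKO peaks of height 5.99 and 5.21 lay 1049 bp and 811 bp before the TSS, with 63 and 62 CpGs. The WT list had none there and had a peak of height 6.27 at 15.7 kb upstream, with 4 CpGs and 1 match to WGATAR. The site in both lists, at 59969769 in each, had heights of 8.55 in WT and 8.27 in DKO and 55 CpGs. It lay 81 bp upstream of *Fam117b* and 148 kb past the *Bmpr2* TSS. DKO peaks of 6.23 and 6.13 lay on either side of it.

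*Bambi*, on the plus strand of chromosome 18 from 3507955 to 3516402, encodes a receptor-like protein without a kinase domain that competes with the type I receptors. Its promoter site had a WT height of 9.66 at 174 bp before the TSS and a DKO height of 6.16 at 354 bp before it, with ES heights of 2.08 and 0.936. Neither window held WGATAA. The WT list also had a peak of 10.6 at 45.4 kb upstream, with 1 CpG and 2 matches 55 bp apart, and an intronic peak of 5.41 at 1.2 kb. Neither had a DKO counterpart, and the distal one was nearer to *Cul2* than to *Bambi*.

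*Smad6*, on the minus strand of chromosome 9 from 63800953 to 63869866, encodes an inhibitory Smad that binds the type I receptors and Smad1. All 17 WT and 22 DKO peaks had *Smad6* as the nearest protein-coding gene. The tallest site in WT, and the tallest of all 10 genes in either list, lay 23.3 kb upstream. It had a height of 30.4 in WT over 5.56 in WT ES, an enrichment of 5.47 and rank 1840. In DKO it had a height of 18.7 over 1.21 in DKO ES, an enrichment of 15.4 and rank 149. The DKO peak was thus lower and yet ranked higher in its own list, beside an ES height that was also lower. This window held 2 matches 56 bp apart and 5 matches to CAGAC, the Smad box.

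Other *Smad6* sites were in both lists as well. At 28.7 kb upstream the heights were 17.3 in WT and 12.4 in DKO, with ranks of 563 and 671. At 38.3 kb upstream they were 11.0 and 10.1, in a window with 31 CpGs. Past the 3′ end of the gene, 79.8 kb from the TSS, they were 14.4 and 9.43, and at 93.1 kb they were 12.7 and 5.72. In an intron, 4.1 kb past the TSS, they were 12.8 and 8.16, with 5 CAGAC matches. All of these windows held at least 1 WGATAA. Pairs without it lay 3.4 kb past the TSS, with heights of 9.11 and 5.43, and 28.2 kb upstream, with 7.17 and 8.21.

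At the *Smad6* promoter the peaks were low, rich in CpG and without WGATAA. The pair in the 5′ UTR, 24 bp past the TSS in WT, had heights of 6.33 in WT and 6.78 in DKO with 50 CpGs. The pair about 0.9 kb upstream had 5.40 and 5.84 with 42 CpGs. Here DKO heights were slightly above WT heights, and the DKO list split the same stretch into more peaks, of heights 5.16, 5.92 and 5.88. Without a WT counterpart were a DKO peak in coding sequence at 1.1 kb, with 64 CpGs and a height of 5.17, intronic peaks at 33.5, 47.2 and 51.5 kb with heights of 6.96, 5.78 and 6.71, a downstream peak of 7.32 at 102.6 kb, and upstream peaks of 5.17 at 8.4 kb and 5.95 at 33.3 kb. The WT peaks without a DKO counterpart had heights between 5.18, in an intron at 40.6 kb, and 10.7, in an intron at 4.9 kb.

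*Smad7*, on the plus strand of chromosome 18 from 75527183 to 75555589, encodes the other inhibitory Smad, which acts on both the BMP and the TGF-beta receptors. Its tallest site lay 36.5 kb upstream and had a height of 24.8 in WT over 6.69 in WT ES, and 8.63 in DKO over 1.64 in DKO ES. Only 2.47% of all site pairs had a higher WT ES height. The enrichment was 3.70 in WT and 5.27 in DKO, so the order of the genotypes by enrichment was opposite to that by height. Downstream, 38.3 kb past the TSS, the site in both lists had heights of 5.37 in WT and 6.57 in DKO.

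Nearer to *Smad7* all peaks were from the DKO list. They lay 1.1 kb and 488 bp before the TSS, in coding sequence at 1.7 kb and in an intron at 3.2 kb, with heights of 6.32, 5.10, 6.91 and 5.57 and between 20 and 52 CpGs. The intronic one held 2 matches to WGATAA, 97 bp apart, and the other 3 held none. A further pair of DKO peaks 24.7 kb and 24.3 kb upstream, with heights of 6.19 and 7.96, held 66 and 44 CpGs, and 66 was the highest CpG count among the 67 DKO peaks. The WT list had a single peak of its own, with a height of 5.65 at 47.7 kb upstream, nearer to *Dym*.

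The Id genes are short, and together they had 9 WT and 22 DKO peaks. Of the 9 WT peaks 8 had a DKO counterpart, 88.9% (95% Wilson interval 56.5% to 98.0%) against 45.6% of all WT peaks. Their median window held 20 CpGs, and 74.9% of all WT peaks with 20 CpGs or more had a counterpart. Within 5 kb of a TSS the share over all WT peaks was 65.8%. The interval covers both of these shares, and neighbouring peaks at the *Id3* promoter are counted apart. Of the 22 DKO peaks 9 had a WT counterpart, 40.9%, which was near the 45.1% of all DKO peaks. At *Id1*, on the plus strand of chromosome 2 from 152561987 to 152563146, the 3 WT peaks all lay in *H13*, between 28.4 and 49.7 kb upstream, and all had DKO counterparts. A DKO peak at 49.1 kb upstream, also in *H13*, had a height of 8.46 and 41 CpGs. It lay 616 bp from the nearest WT peak and so had no counterpart, but through the DKO peak between them it was part of the same site. The highest WT peak was at 28.4 kb, with heights of 10.0 in WT and 8.94 in DKO and 37 CpGs. Near *Id1* itself only the DKO list had peaks, with a height of 5.21 at 1031 bp before the TSS and 9.03 at 3.4 kb past it. The ES height at the second was 2.85, and neither window held WGATAA. Another DKO peak, of height 6.25, lay 30.4 kb downstream and closer to *Bcl2l1*.

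*Id2* lies on the minus strand of chromosome 12 from 25778666 to 25780957. Its only WT peak, 2.9 kb upstream at 25783812, had a height of 6.25 over 1.96 in WT ES. The DKO peak 1 bp away had a height of 6.66 over 1.22 in DKO ES. In rank they stood at 19983 and 6216. DKO peaks without a WT counterpart lay 95 bp before the TSS, in coding sequence at 310 bp and 786 bp beyond the gene, with heights of 6.27, 5.78 and 8.69. None of the *Id2* peaks held WGATAA or WGATAR.

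*Id3*, on the plus strand of chromosome 4 from 135699412 to 135701670, had the tallest peaks among the Id genes. Its site 3.1 kb upstream had a height of 14.8 in WT over 3.83 in WT ES, and 10.4 in DKO over 0.674 in DKO ES. The enrichment was 3.86 in WT and 10.4 in DKO, and the window held 2 WGATAA and 5 WGATAR matches and 20 CpGs. At the promoter the WT heights were 9.09 in the 5′ UTR and 8.94 in coding sequence, and the DKO heights were 5.75 and 8.37. These windows held no WGATAA.

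Beyond the promoter of *Id3*, a site 37.1 kb downstream in an intron of *E2f2* had heights of 14.7 in WT and 10.5 in DKO over ES heights of 4.52 and 3.10. The DKO list had 6 further peaks, at 26.3 and 23.2 kb upstream and at 1.3, 4.8, 16.7 and 29.0 kb past the TSS, with heights between 5.33 and 7.97. The intronic one at 1.3 kb held 1 WGATAA and the other 5 held none. The WT list had 1 peak of its own, 8.8 kb upstream, with a height of 5.23 and 1 match.

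At sites in both lists the nearest peaks were paired, which gave 28 pairs at the 10 genes and 8489 in all. The DKO height was lower than the WT height in 21 of the 28 pairs and higher in 7, which is 25.0% against 28.1% of all pairs. The median ratio of DKO to WT height was 0.710, with quartiles of 0.582 and 1.01, against 0.806 over all pairs, with quartiles of 0.580 and 1.03. Since the depth scaling is not known, the ratio is to be read only against that of all pairs. In the 16 pairs with under 20 CpGs the median ratio was 0.605, against 0.660 for all such pairs, and in the 12 pairs with 20 CpGs or more it was 0.952, against 0.929. The median WT height was 14.9 in the pairs with under 20 CpGs and 8.74 in the others. Both heights of a pair are at least 5, so a low WT height leaves little room for a low ratio. The part of this threshold in the difference between these groups was not tested. The lowest ratio was 0.274, at the *Bmp2* site with overlapping matches, and 1.31% of all pairs had a lower ratio. The highest was 1.22, at the *Smad7* site 38.3 kb past the TSS.

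The ES controls differed in the same direction as these heights. The DKO ES height was below the WT ES height in 23 of the 28 pairs, 82.1% against 75.7% of all pairs, with medians of 2.14 in WT ES and 1.42 in DKO ES. Enrichment, which divides by that height, was higher in DKO in 17 of the 28 pairs, 60.7% against 55.5% of all pairs. After the ES height was subtracted from each, the median ratio was 0.740, against 0.832 over all pairs. The part of the ES libraries in the differences between WT and DKO was not tested.

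**Figure D3:**
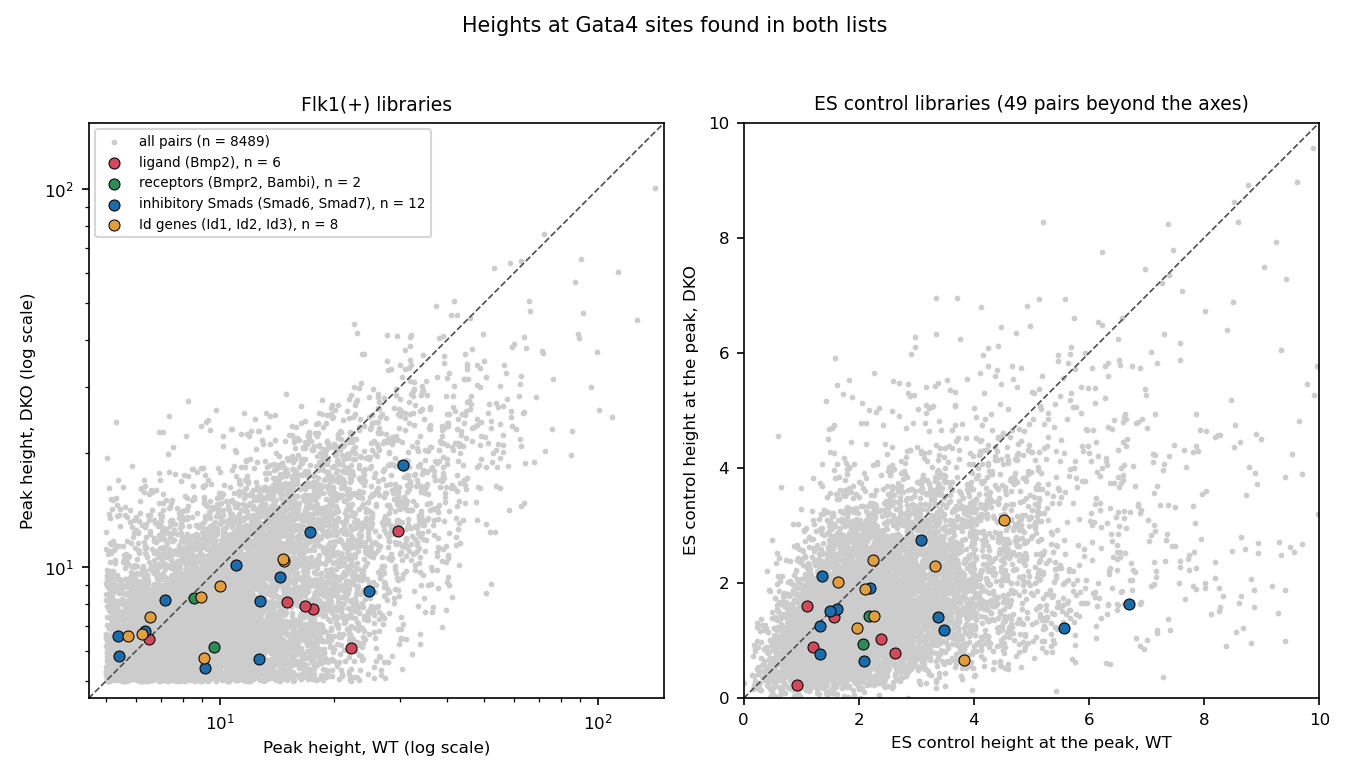
DKO against WT peak height at sites in both lists (left, log scales) and DKO ES against WT ES height at the same sites (right, linear scales, 49 pairs beyond the axes), with 28 pairs at the 10 genes coloured by role, all 8489 pairs in grey and equal heights on the dashed line. All 6 *Bmp2* pairs lie below the line on the left, the promoter pair (6.50 and 6.47) only just, and 23 of the 28 coloured pairs lie below it on the right.

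WGATAA occurred in 29 of the 48 WT peaks, 60.4% (95% Wilson interval 46.3% to 73.0%), against 61.9% of all WT peaks. It occurred in 27 of the 67 DKO peaks, 40.3% (95% Wilson interval 29.4% to 52.3%), against 38.1% of all DKO peaks. Both shares were thus near those of the whole lists. In windows of the same length 2 kb to either side of the peaks, 41.7% held it for WT and 30.6% for DKO, against 41.1% and 38.8% over all peaks. Of the peaks in 1 list alone, 12 of 19 WT peaks and 9 of 31 DKO peaks held it, 63.2% and 29.0%, against 69.5% and 30.3% over all such peaks.

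Motif content differed with the position of the peaks. Over 5 kb from any TSS, 23 of 31 WT peaks and 22 of 32 DKO peaks held WGATAA, 74.2% and 68.8%, against 77.3% and 61.7% of all such peaks. Within 5 kb of a TSS, 6 of 17 WT peaks and 5 of 35 DKO peaks held it, 35.3% and 14.3%, against 31.7% and 18.4%. The median window held 9.5 CpGs in WT and 21 in DKO, against 8 and 21 over all peaks of the lists. Of the 67 DKO peaks, 36 held 20 CpGs or more, of which 20 had no WT counterpart, and of the 48 WT peaks 16 did, of which 4 had no DKO counterpart. The share of such CpG-rich peaks with a counterpart was 44.4% in DKO and 75.0% in WT. It was close to the 44.4% and 74.9% over all CpG-rich peaks. Among the BMP gene peaks with under 20 CpGs, the shares were higher than over all such peaks. In WT, 17 of 32 had a counterpart, 53.1% (Wilson interval 36.4% to 69.1%) against 34.8%. In DKO, 20 of 31 did, 64.5% (Wilson interval 46.9% to 78.9%) against 45.8%. These intervals treat neighbouring peaks as independent, and this split was not repeated without *Smad6*. These peaks were also taller, with median heights of 9.01 in WT and 6.96 in DKO, against 7.46 and 6.34 over all such peaks. In the whole lists, peaks with a counterpart had higher medians than the others, 10.1 against 6.69 in WT and 7.82 against 6.40 in DKO. The part of height in these shares was not tested.

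The Smad box CAGAC, searched on both strands, occurred in 31 WT peaks, 64.6% against 70.8% of all WT peaks, and in 45 DKO peaks, 67.2% against 69.9%. GGCGCC, the core of BMP-response elements, reads the same on both strands and holds a CpG. It occurred in 10 WT peaks, 20.8% against 11.9% of all WT peaks, and in 24 DKO peaks, 35.8% against 20.9%. Of these, 8 WT and 19 DKO peaks lay within 5 kb of a TSS, 47.1% and 54.3% of the peaks there, against 26.6% and 31.7% over all peaks at that distance. By gene, *Id3* had GGCGCC in 4 of 5 WT and 5 of 10 DKO peaks, and *Id2* in its 1 WT peak and 3 of 4 DKO peaks. *Smad6* had it in 4 of 17 WT and 7 of 22 DKO peaks, *Smad7* in 0 of 3 and 4 of 8, *Id1* in 0 of 3 and 3 of 8, and *Bmp2* in 0 of 9 and 1 of 7. Of the other 4 genes, *Bambi* had it in 1 of 3 WT peaks and *Bmpr2* in 1 of 5 DKO peaks. Windows of neighbouring peaks overlap, so 1 GGCGCC can be counted in more than 1 peak. A match describes the sequence of the window and is not evidence that a Smad was bound.

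**Figure D4:**
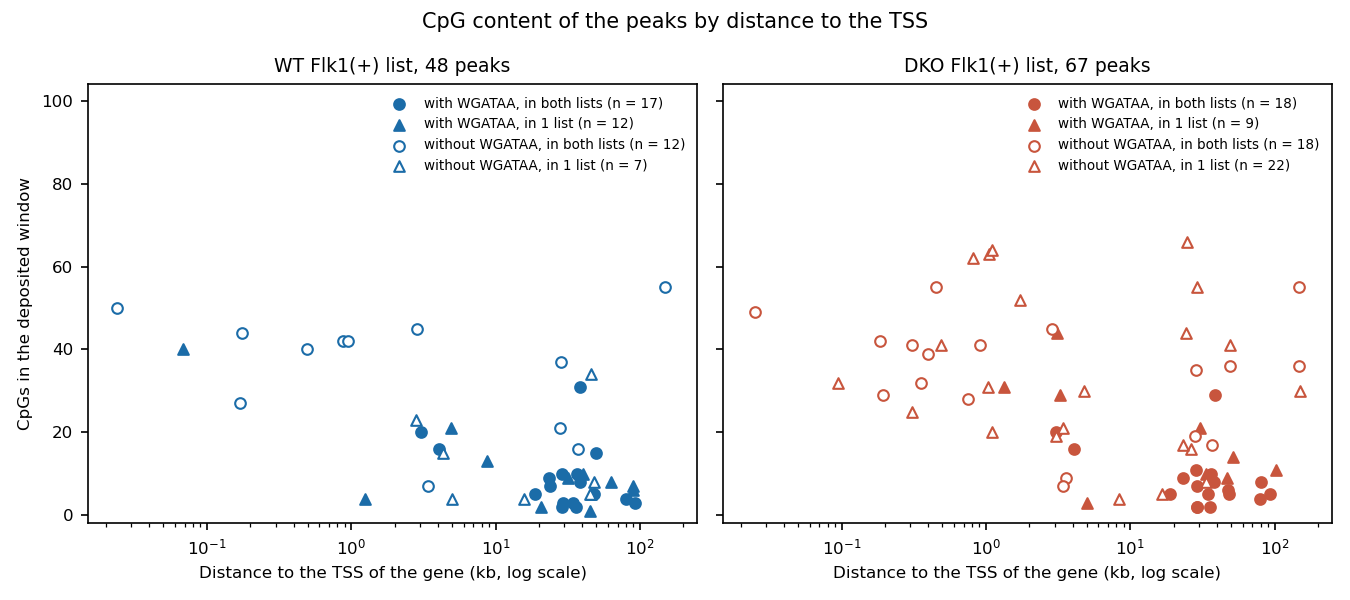
CpGs in the deposited window (vertical axis) by distance to the TSS of the gene in kb (horizontal axis, log scale) for the 48 WT peaks (left) and the 67 DKO peaks (right), with filled symbols for peaks with WGATAA and triangles for peaks in 1 list alone. Distal peaks with WGATAA gather below 20 CpGs in both panels, and the DKO panel has 22 peaks without WGATAA in that list alone, against 7 in the WT panel. In the whole lists, 8701 of 22733 DKO peaks and 3383 of 20410 WT peaks were of this kind, so the lists differ in the same direction.

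The rest of the pathway was read from 39 further genes. Within 5 kb, 19 of them had a WT peak and 20 a DKO peak, 48.7% and 51.3%, against 39.4% and 49.1% of all genes. Within 50 kb 29 had one in each list, 74.4%, against 67.2% of all genes for WT and 70.5% for DKO. The DKO shares were thus near those of all genes, and the counts by role rest on few genes each. Among ligands 5 of 11 had a WT peak within 5 kb and 3 a DKO peak, among receptors 4 and 3 of 5, and among the signal-carrying Smads 3 and 4 of 4. Inhibitors outside the cell, such as Noggin, had 2 and 3 of 10, inhibitors inside the cell 2 and 3 of 4, and targets 3 and 4 of 5. In all, 14 of the 39 genes had a peak within 5 kb in both lists, 5 in the WT list alone and 6 in the DKO list alone. The same split over all genes was not made, so these counts have no background.

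The tallest of their WT peaks exceeded those of the 10 genes. An intronic peak of *Bmp6*, a BMP ligand, had a height of 85.2 in WT and ranked 10 in the whole WT list, and the DKO peak there had 19.8 and ranked 122. An intronic peak of *Smad1*, which carries the signal to the nucleus, had 42.4 in WT, and the highest DKO peak of the gene had 17.6. *Ski*, a co-repressor of Smads, had 31.2 in WT and 17.3 in DKO at its highest peaks. In the DKO list the tallest were 22.8 in an intron of *Smurf1*, a ubiquitin ligase that removes Smads, and 19.9 downstream of *Acvrl1*, a type I receptor of blood vessels. The highest WT peak within 5 kb of *Smurf1* was lower, with a height of 11.3, and lay at another intronic position. The *Acvrl1* peak had a height of 21.7 in WT, with ES heights of 2.48 in WT ES and 0.543 in DKO ES.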

How the data were processed

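Gata4 ChIP-seq was read from the peak lists of the WT Flk1(+) and DKO Flk1(+) libraries, each called by the authors against the ES library of its genotype. Per the paper's methods, a sequencing company aligned the reads to mm9, and DNAnexus tools called peaks with a kernel bandwidth of 30, a minimum height of 5, a minimum enrichment of 3 and a ratio of unique to repeat mapping of at least 3. The submitters' processing notes name CASAVA 1.8.1 and cutadapt. The aligner's settings, the treatment of duplicates and the depth scaling are not given in the sources used here, and the paper states more mapped reads for the DKO library. The deposited signal is a height per peak and per ES control. The deposited ratio equals the height over the ES height, with ES heights below 1 taken as 1, in every row. The deposited −log10 q-value was not used, and the deposited score is the authors' rank of the peak, 1 being the highest. No column names a library, so each list was assigned by its number of peaks in the paper.

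Rows of 1 peak with several genes were merged. Deposited positions and 501-bp sequences equalled mm9 at every peak. Genes were the protein-coding genes of GENCODE vM1 on chromosomes 1 to 19 and X, with the longest entry for a repeated symbol, and a place was read from any of their transcripts. Sites in both lists have positions within 500 bp, and height ratios used mutually nearest peaks. Motifs and CpGs were counted in the 501-bp windows, and the motif also in windows 2 kb to either side. The genes named are the 10 genes, the pathway genes with the 3 highest peaks within 5 kb in each list, and any gene nearer to a peak than the member. The genes and lists were chosen with earlier results of these data known. With 1 library per condition no test was made. Overlap and motif steps were tested on simulated data. Alternatives varied the reach, overlap, motif, window, rank and enrichment. The expression arrays and the authors' direct DKO against WT peak call were not analysed here. Python 3.11.15, NumPy 2.4.6, pandas 2.3.3, SciPy 1.17.1, pysam 0.24.0 and Matplotlib 3.10.9 were used.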

Additional observations from a re-analysis of the deposited data

How the results depend on the processing

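No paired analysis was possible because each condition has 1 library. Of 57 alternative values, 39 stayed within 1.5 times the count, or within the interval of the share or median, and 18 did not. The number of peaks follows the reach by construction: with 5 kb from the gene it was 17 in WT and 32 in DKO, with 20 kb it was 25 and 40, and with 100 kb it was 74 in WT (and 94 in DKO). It was 22 and 35 in the higher-ranked part of each list, and 18 and 24 at an enrichment of at least 5. Without *Smad6*, an alternative chosen after seeing the data, 31 WT and 45 DKO peaks remained. The other pathway genes with a WT peak within 5 kb were 19. The share of DKO peaks with a WT counterpart was 35.8% with positions within 100 bp and 71.4% in the higher-ranked part of the list. With WGATAR in place of WGATAA, 79.2% of WT and 53.7% of DKO peaks held the motif. These shares were not set against all peaks at the same settings and have no background. Over the whole DKO list, peaks with a counterpart had a median rank at 38.0% of the list, and the others at 58.4%. The median CpG count was 4 in WT and 9 in DKO in the central 200 bp, a shorter window, and 6.5 in WT in the higher-ranked part of the list. The median height ratio stayed between 0.679 and 0.740 under its 3 alternatives. Values at single peaks have no replicate and no interval, and reads behind a height are not known here, so low peaks near the height threshold of 5 are the least certain to be in or out of a list.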
